A study of Mus musculus with 8 samples.

Results

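The gamma crystallins are a family of small structural proteins of the eye lens, and their transcripts were followed here in retinal pigment epithelium (RPE), the pigmented cell layer behind the photoreceptors. The members were taken by name: the chromosome 1 genes Cryga, Crygb, Crygc, Crygd, Cryge and Crygf, together with Crygs and Crygn, which makes 8 of the 31053 genes listed in the count files. The study asked how loss of the ciliary gene Bbs8 changes gene expression in the RPE, and compared Bbs8-/- mice with Bbs8+/+ littermates. RNA came from RPE that had been isolated from eyes of C57/Bl6 mice at postnatal day 29 (P29), after cornea, lens and retina had been removed. There were 4 libraries of each genotype, each from 1 animal, with no treatment and with sex not determined. Bbs8 was missing from the whole animal, so photoreceptors and every other cell type of the eye lacked it too.

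The libraries were made with the QuantSeq 3′ protocol, which reads the end of each polyadenylated transcript and gives about 1 fragment per transcript, so levels of different genes can be set side by side without dividing by length. Counts on genes ranged from 2495094 to 3093428 in the Bbs8+/+ libraries and from 2389835 to 2736289 in the Bbs8-/- libraries. Levels are given as CPM, the counts relative to the scaled size of a library, and n is 4 libraries per genotype throughout. At these depths 3 counts, taken as the floor, correspond to 1.02 to 1.23 CPM, a limit that reflects counting error alone.

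Crystallins are the main soluble proteins of lens fibre cells, where their dense, ordered packing gives transparency and refractive power. Gamma crystallins are monomers folded from Greek key motifs and share this fold with the beta crystallins, while alpha crystallins are small heat shock proteins. The genes Cryga to Crygf are switched on as lens fibres differentiate, Crygs encodes the gamma S crystallin of the mature lens, and Crygn encodes gamma N crystallin, which is also known from the retina.

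The targeted gene, listed as Ttc8 (ENSMUSG00000021013), had 105, 142, 144 and 116 counts in Bbs8+/+ animals and 15, 5, 14 and 15 counts in Bbs8-/- animals. The genotypes did not overlap, so the libraries carried the genotype their labels give. All 11 genes of a list of RPE markers passed the filter on low counts, and Ttr, the most abundant, stood at 20970 CPM in Bbs8+/+ and at 31805 CPM in Bbs8-/- libraries. Best1, a chloride channel typical of RPE, was close to the floor, with between 0 and 5 counts in any library.

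Of the 8 gamma crystallins, 8 passed the filter, a minimum of 1 CPM in 4 or more of the 8 libraries. In edgeR's quasi-likelihood test, at a threshold of 0.05 on the adjusted p, 8 were lower in Bbs8-/- RPE and 0 higher, where 6.80% of the 12889 genes tested were called lower and 5.46% higher. Their direction was the same under each of the scalings tried, those of TMM (with and without lens, rod and erythrocyte genes), DESeq2 and library size alone. For 2 of them, Cryga and Crygf, the mean of the Bbs8-/- libraries was under 1 CPM, so that they passed the filter through the Bbs8+/+ libraries. All Bbs8-/- libraries lay below all Bbs8+/+ libraries for 8 of the 8 genes, as they did for 8.64% of the genes tested. The median log2 fold change of the family, Bbs8-/- minus Bbs8+/+, was -3.39, beside 0.02 over all tested genes. In a bulk sample such as this, fewer cells of a type and less RNA per cell cannot be told apart.

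Crygb (ENSMUSG00000073658), one of the genes of the chromosome 1 cluster, was the most abundant member in both genotypes. It had 2134, 1848, 1556 and 1990 counts in Bbs8+/+ animals and 132, 194, 166 and 176 counts in Bbs8-/- animals. The lowest Bbs8+/+ library was 9.15 times the highest Bbs8-/- library in CPM, so the gap between the genotypes was far wider than the spread within either. Mean levels of Crygb were 698 ± 45.6 CPM (SD, n = 4) with Bbs8 and 63.0 ± 6.68 CPM (SD, n = 4) without it. This difference amounted to a log2 fold change of -3.47 with a standard error of 0.10 (adjusted p = 5.11e-26, edgeR quasi-likelihood test).

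Crygs (ENSMUSG00000033501), on chromosome 16, had 1084, 826, 753 and 863 counts in Bbs8+/+ animals and 60, 89, 91 and 88 counts in Bbs8-/- animals. Here too the groups were far apart, although Bbs8+/+ replicate 1 was the highest and Bbs8-/- replicate 1 the lowest of its group. Mean levels were 326 ± 28.1 CPM (SD, n = 4) and 31.0 ± 4.86 CPM (SD, n = 4), and the fitted log2 fold change was -3.39 with a standard error of 0.12 (adjusted p = 1.36e-22, edgeR quasi-likelihood test). Thus a member on another chromosome had a fold change within 1 standard error of that of Crygb.

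For Crygc (ENSMUSG00000025952), another member of the cluster, 812, 836, 662 and 796 counts were found in Bbs8+/+ and 86, 84, 89 and 89 counts in Bbs8-/- libraries. The Bbs8-/- libraries were close together, with a coefficient of variation of 8.60% in CPM. Crygc fell from 289 ± 19.2 CPM (SD, n = 4) to 33.1 ± 2.85 CPM (SD, n = 4), a fitted log2 fold change of -3.13 with a standard error of 0.12 (adjusted p = 5.35e-22, edgeR quasi-likelihood test).

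Crygd (ENSMUSG00000067299), whose human counterpart is a known cataract gene, had 773, 552, 536 and 635 counts in Bbs8+/+ libraries and 62, 58, 72 and 39 counts in Bbs8-/- libraries. Bbs8-/- replicate 4 was the lowest library, and no library of one genotype reached the range of the other. The log2 fold change was -3.39 with a standard error of 0.16 (adjusted p = 1.74e-19, edgeR quasi-likelihood test), from 231 ± 24.1 CPM (SD, n = 4) to 22.2 ± 6.59 CPM (SD, n = 4).

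Cryge (ENSMUSG00000070870) varied more than these 4 genes between Bbs8-/- libraries. Its counts were 289, 231, 279 and 173 in Bbs8+/+ libraries and 9, 36, 7 and 48 in Bbs8-/- libraries, so that replicates 2 and 4 of Bbs8-/- were well above replicates 1 and 3. The coefficient of variation in CPM was 76.1% in Bbs8-/- and 23.1% in Bbs8+/+ libraries. All Bbs8-/- libraries were still below all Bbs8+/+ libraries, and the log2 fold change was -3.28 with a standard error of 0.28 (adjusted p = 1.47e-11, edgeR quasi-likelihood test). Crygd did not share this pattern, and the ratio of Cryge to Crygd counts was 0.374, 0.418, 0.521 and 0.272 in Bbs8+/+ libraries but 0.145, 0.621, 0.0972 and 1.23 in Bbs8-/- libraries.

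**Figure D1:**
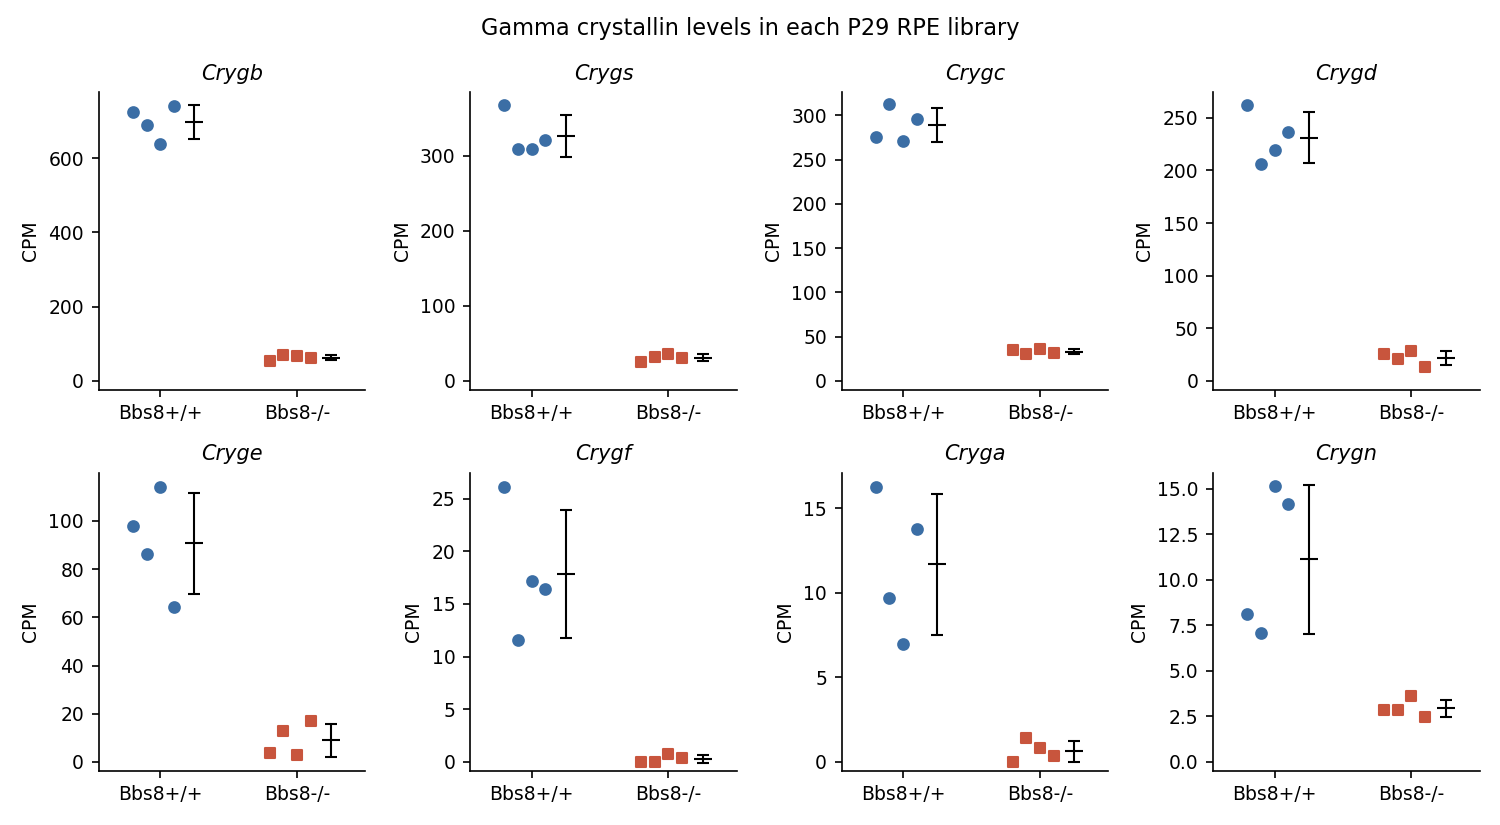
Each panel shows 1 gamma crystallin in CPM on a linear axis from 0, with 1 point per library for Bbs8+/+ (circles) and Bbs8-/- (squares) and the mean with its SD (n = 4) beside them. In all 8 panels the 4 Bbs8-/- libraries lie below the 4 Bbs8+/+ libraries, and the panel of Cryge shows the wide spread of its Bbs8-/- libraries, from 2.81 to 16.8 CPM.

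The remaining members had low counts. Crygf (ENSMUSG00000025945) had 77, 31, 42 and 44 counts in Bbs8+/+ animals and 0, 0, 2 and 1 counts in Bbs8-/- animals. With 194 counts in all Bbs8+/+ libraries together and 3 in all Bbs8-/- libraries, its pooled level was 63.6-fold lower (95% exact counting interval 21.4 to 311), and the fit gave an adjusted p of 3.13e-09 (edgeR quasi-likelihood test). Every Bbs8-/- library was below the floor, so its level there is known only as this interval, and without Bbs8-/- replicate 3, which had 2 of the 3 counts, the pooled level was 146-fold lower.

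Cryga (ENSMUSG00000044429) was nearly as low in Bbs8-/- RPE. Its counts were 48, 26, 17 and 37 in Bbs8+/+ libraries and 0, 4, 2 and 1 in Bbs8-/- libraries, and the pooled level was 18.0-fold lower (95% exact counting interval 8.48 to 45.6; adjusted p = 7.49e-06, edgeR quasi-likelihood test). That interval holds the fold changes of the abundant members and overlaps that of Crygf, so a different size of change between Cryga and these members could not be seen at this depth. A readthrough gene model, Gm28845, covers 70 of the last 300 exonic bases of Cryga on the same strand, and reads falling on both would not have been assigned to either. Gm28845 itself had 0 counts in the 8 libraries, and Cryga may be undercounted. Without Bbs8-/- replicate 2, which had 4 of the 7 counts, the pooled level of Cryga was 30.9-fold lower.

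Crygn (ENSMUSG00000038135), on chromosome 5, had the smallest change. It had 24, 19, 37 and 38 counts in Bbs8+/+ libraries and 7, 8, 9 and 7 counts in Bbs8-/- libraries, and the genotypes did not overlap, with the lowest Bbs8+/+ library 1.97 times the highest Bbs8-/- library. The mean fell from 11.1 ± 4.10 CPM (SD, n = 4) to 2.95 ± 0.481 CPM (SD, n = 4), and the fitted log2 fold change was -1.90 with a standard error of 0.47 (adjusted p = 0.00400, edgeR quasi-likelihood test). Its pooled level was 3.74-fold lower (95% exact counting interval 2.50 to 5.75), and this interval lies below those of the 7 other members.

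In Bbs8+/+ RPE the order of the levels was Crygb, Crygs, Crygc, Crygd, Cryge, Crygf, Cryga and Crygn. The ranges of Crygs and Crygc overlapped, as did those of Crygf, Cryga and Crygn, while the ranges of the other neighbours in this order did not overlap. Crygf was above Cryga within each of the 4 libraries, but the places of Cryge, Crygf and Cryga in both orders are uncertain, since reads of Cryge and Crygf that match both genes, and those of Cryga on an overlapping gene model, would not have been counted. In Bbs8-/- RPE the order was Crygb, Crygc, Crygs, Crygd, Cryge, Crygn, Cryga and Crygf. There only Crygb and Crygc, and Crygn and Cryga, were separated from the next gene in the order without overlap, so that the shift of Crygc ahead of Crygs was within the spread between libraries.

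The 8 genes together took 0.162 ± 0.00593% (SD, n = 4) of all counts on genes in Bbs8+/+ libraries and 0.0167 ± 0.00140% (SD, n = 4) in Bbs8-/- libraries. The makeup of the family inside each library does not depend on how libraries are scaled against each other. Crygb made up 41.6 ± 1.54% (SD, n = 4) of the summed gamma crystallin counts in Bbs8+/+ and 38.8 ± 1.72% (SD, n = 4) in Bbs8-/- libraries. Crygs made up 19.5 ± 0.850% (SD, n = 4) and 19.0 ± 1.65% (SD, n = 4), and Crygc 17.3 ± 1.49% (SD, n = 4) and 20.5 ± 2.67% (SD, n = 4). The genotypes overlapped for these 3 genes and for Crygd, Cryge and Cryga, although the mean share of Crygb was lower and that of Crygc higher in Bbs8-/- with any 1 library left out. Only the shares of Crygf and Crygn did not overlap between the genotypes. Crygf went from 1.06 ± 0.316% (SD, n = 4) to 0.170 ± 0.218% (SD, n = 4), and Crygn from 0.669 ± 0.262% (SD, n = 4) to 1.82 ± 0.232% (SD, n = 4).

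**Figure D2:**
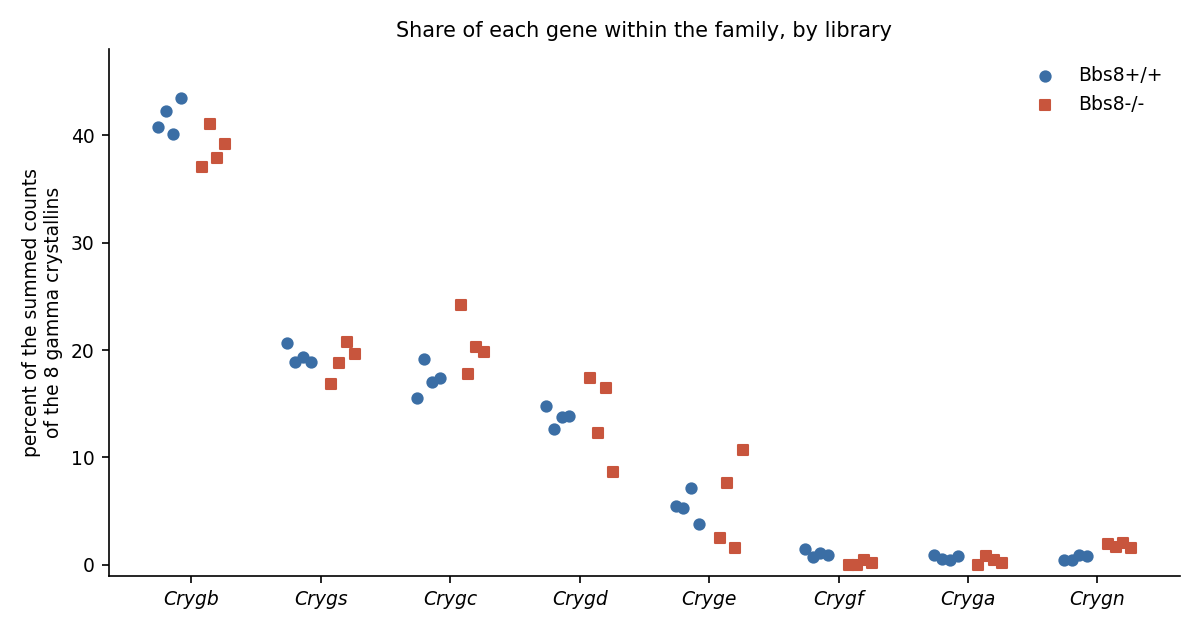
The share of each gamma crystallin in the summed counts of the 8 genes is plotted in percent for each library, with circles for Bbs8+/+ and squares for Bbs8-/-. The shares of Crygb, Crygs, Crygc, Crygd, Cryge and Cryga overlap between the genotypes, Crygf is lower and Crygn higher in Bbs8-/- libraries, and Cryge ranges from 1.60 to 10.7% among Bbs8-/- libraries.

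Reads were counted only where they mapped to 1 place, which matters for near-identical genes, and Cryge and Crygf are the closest pair of the family. Their coding sequences differ at 10 of 525 bases, and their translated proteins are 97.7% identical. The last 60 coding bases, stop codon included, are shown for this pair and for Crygd, the next most similar gene, from the GENCODE transcripts on GRCm38 (Cryge chr1:65048624-65048683, reverse strand; Crygf chr1:65928184-65928243, forward strand; Crygd chr1:65061910-65061969, reverse strand), with capitals where a base differs from Cryge at the same distance from the stop.
Cryge: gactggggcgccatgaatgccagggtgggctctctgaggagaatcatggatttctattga
Crygf: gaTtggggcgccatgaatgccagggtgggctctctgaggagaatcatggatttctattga
Crygd: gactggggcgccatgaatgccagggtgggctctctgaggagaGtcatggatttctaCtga
Crygf differs from Cryge at 1 and Crygd at 2 of these 60 bases, so a read that ended here would have few bases by which to tell the 3 genes apart.

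Over the last 300 exonic bases, where QuantSeq reads fall, 201 windows of 100 bases, the length of the reads, were compared without gaps with the transcripts of every other member. In Cryge 35 windows were identical to Crygf and 58 (28.9%) differed by at most 2 bases, and in Crygf 35 were identical to Cryge and 64 (31.8%) differed by at most 2. The closest window of Crygd had 5 mismatches, that of Cryga 8, that of Crygc 13 and that of Crygb 14. Crygs and Crygn were at least 30 mismatches from any other member in every window. No window of these 6 genes was identical to any part of the transcripts of another gene, among 141767 transcripts searched on both strands. The counts of Cryge and Crygf are therefore uncertain, both in level and in how reads were divided between them, whereas Crygb, Crygc, Crygs and Crygn differ from the rest of the family at 13 or more bases in each window.

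**Figure D3:**
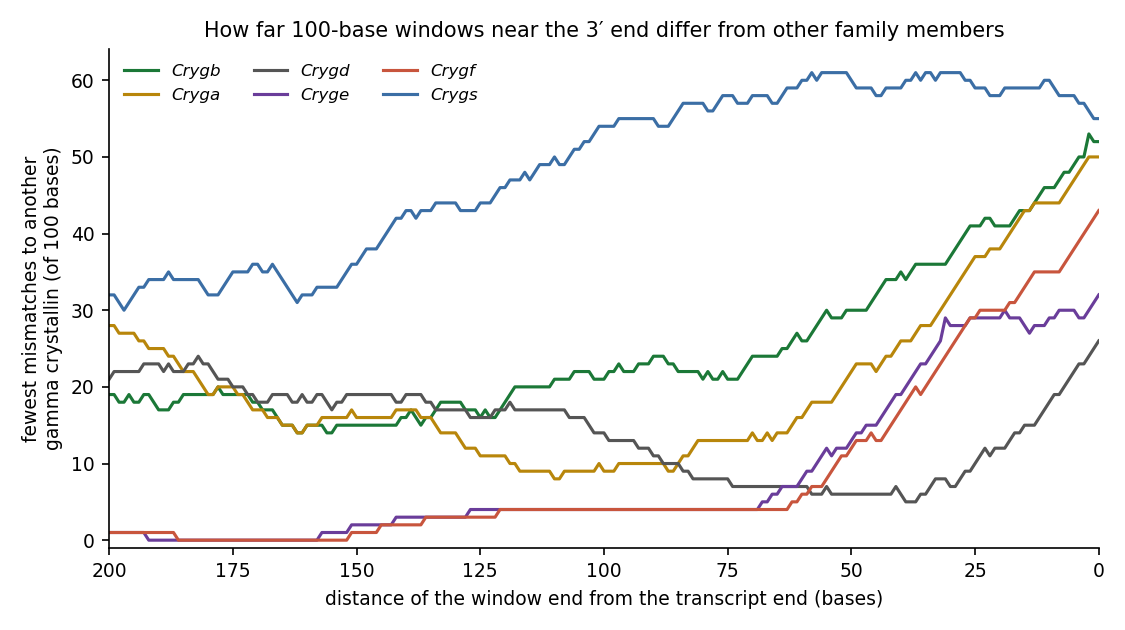
For windows of 100 bases, the fewest mismatches to any other gamma crystallin transcript (vertical axis) are plotted against the distance of the window's end from the transcript's end in bases (horizontal axis), with 1 line per gene for 6 of the 8 genes. The lines of Cryge and Crygf lie at 0 for the 35 identical windows and stay at 4 or fewer mismatches to 70 bases before the transcript's end, while Crygs stays at 30 or more mismatches.

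Among the proteins translated from Cryga to Crygf, identity between pairs ranged from 72.6 to 97.7%, with a median of 78.3% over 15 pairs. Crygs was 48.3 to 52.2% identical to these 6 proteins and Crygn 39.9 to 44.3%. The similar fold changes of Crygb and Crygs were thus measured on genes whose proteins and transcript ends are clearly distinct.

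The members lie in 4 places of the genome. Cryga, Crygb, Crygc, Crygd and Cryge form a cluster of 54.8 kb on the reverse strand of chromosome 1, from 65048554 to 65103373 of GRCm38. Crygf lies 823 kb away on the same chromosome and on the forward strand, from 65926520 to 65928307. Crygs lies on chromosome 16, from 22805203 to 22811577, and Crygn on chromosome 5, from 24751003 to 24758008, both on the reverse strand.

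Since genes in these separate places fell together, their promoters are shown, as the 80 bases before the start in the RefSeq table for GRCm38.p6, in which 8 of the 8 members were found. For Crygs and Crygn these bases lie inside the GENCODE gene spans given above, because the RefSeq and GENCODE annotations place the start differently. Crygb stands for the cluster (chr1:65082291-65082370, reverse strand), and Cryge (chr1:65051164-65051243, reverse strand) is set beside its near copy Crygf (chr1:65926442-65926521, forward strand), followed by Crygs (chr16:22811411-22811490, reverse strand) and Crygn (chr5:24757849-24757928, reverse strand). Capitals mark the motifs searched, which were the TATA box TATAAA, the related TATATA, the Maf element core TGCTGA and the SOX core CTTTGT, on both strands.
Crygb: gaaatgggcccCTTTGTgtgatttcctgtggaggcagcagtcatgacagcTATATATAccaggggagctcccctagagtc
Cryge: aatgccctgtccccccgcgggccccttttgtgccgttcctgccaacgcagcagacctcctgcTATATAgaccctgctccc
Crygf: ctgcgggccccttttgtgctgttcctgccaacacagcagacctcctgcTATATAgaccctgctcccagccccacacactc
Crygs: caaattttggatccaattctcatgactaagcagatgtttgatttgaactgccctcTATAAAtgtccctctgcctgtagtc
Crygn: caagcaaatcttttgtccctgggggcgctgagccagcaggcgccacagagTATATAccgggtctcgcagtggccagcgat
The letters TATATA were found in the 250 bases before the start in 7 of the 8 members, all but Crygs, and in 5.25% of 32851 promoters of the same length. Crygs had TATAAA instead, from 25 to 20 bases before its start, a motif found in 12.4% of all promoters. In Crygb 2 overlapping copies of TATATA began 30 and 28 bases before the start, and in Crygd and Crygn 1 copy began 30 bases before it. In Crygf the copy nearest the start began at 32 bases and in Cryge at 18 bases, although the surrounding letters of the pair are nearly the same, so the annotated starts of these near copies are not at matching bases.

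The Maf element core was found in 4 members, Cryga, Crygc, Crygn and Crygs, and in 16.1% of all promoters. The SOX core was found in 2 members, Cryga and Crygb, and in 16.5% of all promoters. These matches describe letters in a window and do not show that a factor binds there.

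Genes beside the gamma crystallins did not fall with them to a like degree. Within 500 kb of the cluster 7 other genes were tested, with log2 fold changes from -0.41 to 0.81, and only the transcription factor gene Creb1, 444 kb away, was past the threshold (log2 fold change -0.41, adjusted p = 0.0484, edgeR quasi-likelihood test), a call kept in 8 of 16 alternatives (adjusted p from 0.00976 to 0.176). It was lost in this test without Bbs8+/+ replicate 2, 3 or 4 (adjusted p = 0.136, 0.138 and 0.0967, edgeR quasi-likelihood test) and without Bbs8-/- replicate 1, 3 or 4 (adjusted p = 0.176, 0.0812 and 0.0947). Idh1 and Pikfyve, 55.2 and 83.3 kb from the cluster, had log2 fold changes of 0.02 and 0.50 and were not past it. Near Crygf the 1 gene tested was Map2, encoding a neuronal microtubule-associated protein, which fell by 0.56 on the log2 scale (adjusted p = 7.11e-06, edgeR quasi-likelihood test). Of 9 genes near Crygs, 1 was lower (Etv5) and 1 higher (Fetub), and of 18 near Crygn, 1 was lower (Agap3) and 2 were higher (Kcnh2 and Slc4a2), where over all genes 6.80% were lower and 5.46% higher, so that these few calls do not set the neighbours apart. The lowest log2 fold change among all 35 neighbours was -0.60, above that of each of the 8 members.

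Of these 5 calls near Crygs and Crygn, that of Slc4a2 was kept with any 1 library left out, and the other 4 depended on single libraries. The adjusted p of Etv5 in edgeR's quasi-likelihood test was 0.0346 (0.00978 to 0.140 over 16 alternatives), and 0.0741 or 0.0978 without Bbs8+/+ replicate 2 or 4 and 0.140 or 0.104 without Bbs8-/- replicate 3 or 4. In the same edgeR quasi-likelihood test that of Fetub was 0.0295 (0.00915 to 0.247 over 15 alternatives), and 0.0837, 0.0697 or 0.0988 without Bbs8+/+ replicate 2, 3 or 4 and 0.247 without Bbs8-/- replicate 4. These genes are given as neighbours only, by their place in the genome. For Agap3 the edgeR quasi-likelihood test gave an adjusted p of 0.0223 (0.0154 to 0.0845 over 16 alternatives), and 0.0607 or 0.0845 without Bbs8+/+ replicate 1 or 2 and 0.0516 or 0.0538 without Bbs8-/- replicate 1 or 3. For Kcnh2 the adjusted p was 0.0188 (0.00438 to 0.0867 over 15 alternatives, edgeR quasi-likelihood test), and 0.0867 or 0.0503 without Bbs8-/- replicate 1 or 3.

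The other lens crystallins were also lower in Bbs8-/- RPE, by smaller amounts. All 8 alpha and beta crystallins on the list were called lower, where 6.80% of all tested genes were. The median of their log2 fold changes was -2.53, and the range ran from -2.92 for Cryba2 to -0.87 for Cryab. Cryab is an alpha crystallin that is also a stress protein outside the lens. Cryaa, the other alpha crystallin, had a log2 fold change of -2.88 and Cryba1 one of -2.86. Crybb3, Crybb1, Cryba4 and Crybb2 lay between -2.60 and -2.29. Except for Crygn, each gamma crystallin had a lower log2 fold change than each of these 8 genes.

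The ratio of summed gamma crystallin counts to summed alpha and beta crystallin counts was 0.907, 0.753, 0.762 and 0.790 in Bbs8+/+ animals and 0.299, 0.408, 0.384 and 0.357 in Bbs8-/- animals. It did not overlap between the genotypes, and its mean was 2.22 times as high in Bbs8+/+ as in Bbs8-/- libraries. Part of this came from Cryab, which fell least, and without Cryab in the sum the mean was 1.52 times as high, still without overlap. Since this ratio is taken inside each library, it does not rest on the scaling between libraries.

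Other genes of lens fibres moved in part with the gamma crystallins. Of 12 lens fibre genes 9 were tested and 6 were lower, where 6.80% of all tested genes were. The median over the 9 was -1.61 on the log2 scale, also with Gja3, at 0 counts in Bbs8-/- libraries, set to its bound. Gja3 and Lgsn, 2 of these 6, had a mean under 1 CPM in Bbs8-/- libraries and passed the filter through the Bbs8+/+ libraries. Mip, the main membrane protein of lens fibres and the most abundant gene of the list, fell from 136 ± 9.58 to 46.2 ± 7.73 CPM (SD, n = 4), and Bfsp1, a beaded filament protein, from 42.9 ± 7.81 to 5.98 ± 2.57 CPM (SD, n = 4). Lim2, a lens membrane protein, fell from 41.3 ± 6.89 to 21.9 ± 9.92 CPM (SD, n = 4), and lost this call without Bbs8+/+ replicate 4 or without Bbs8-/- replicate 2 (adjusted p = 0.0659 and 0.0621, edgeR quasi-likelihood test, where all 16 alternatives ranged from 0.00119 to 0.0659). Grifin, Lctl and Dnase2b were not past the threshold. Of the lens markers, Lenep had 0 counts in the 8 libraries, and Birc7 had 5 counts in all of them together. Summed over the list, the level was 251, 275, 257 and 261 CPM in Bbs8+/+ and 87.2, 72.9, 75.4 and 105 CPM in Bbs8-/- libraries. The ratio of summed gamma crystallin to summed lens fibre counts was 6.43 ± 0.490 (SD, n = 4) in Bbs8+/+ and 1.96 ± 0.435 (SD, n = 4) in Bbs8-/- libraries, again without overlap. What part lens RNA had in the level of the gamma crystallins was not tested.

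**Figure D4:**
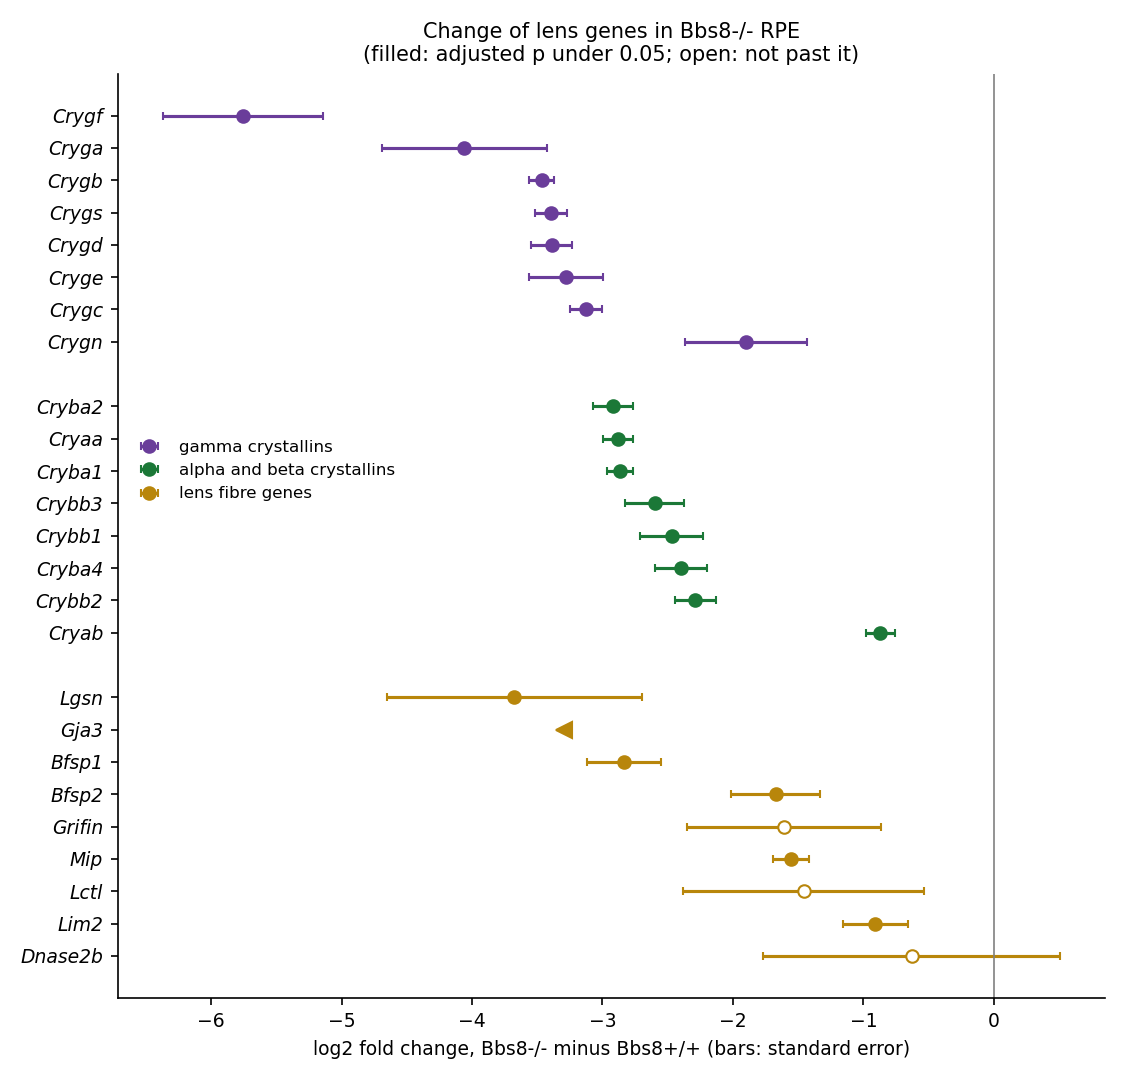
Log2 fold changes, Bbs8-/- minus Bbs8+/+, with their standard errors are plotted for the 8 gamma crystallins, the 8 alpha and beta crystallins and the 9 tested lens fibre genes, filled where the adjusted p was under 0.05. For Gja3, which had 0 counts in all Bbs8-/- libraries, the triangle marks the bound of -3.30 against a floor of 3 counts over the group, and all gamma crystallins but Crygn lie below -3.

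Transcription factors of the lens were examined as a further list. Of 9 such genes 6 were tested, and 0 were lower by edgeR's adjusted p, by its unadjusted p under 0.05 or by DESeq2, a count near the 6.80% of all genes called lower. Of the 6, 2 were higher, where 5.46% of all genes were, Pax6 (log2 fold change 1.07, adjusted p = 0.00845) and Maf (log2 fold change 0.52, adjusted p = 0.000497, edgeR quasi-likelihood test). Six3, at 773 CPM in Bbs8+/+ and 857 CPM in Bbs8-/- RPE the most abundant of the list, was not past the threshold, and neither were Sox2, Prox1 and Hsf4. Foxe3, which marks lens epithelium, had 0 counts in all libraries, and Pitx3 and Sox1 had 9 and 5 counts, all of them in Bbs8+/+ libraries.

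Some genes carry a crystallin name but belong outside the lens families. Of 8 such genes 7 were tested, and 0 were lower by edgeR's adjusted p, by its unadjusted p under 0.05 or by DESeq2, again near the share of 6.80% over all genes. Crym, a thyroid hormone binding protein, was higher at the edge of the threshold (log2 fold change 1.09, adjusted p = 0.0499, edgeR quasi-likelihood test), a call kept in 6 of 16 alternatives (adjusted p from 0.0313 to 0.167). The call was lost without Bbs8+/+ replicate 1, 2, 3 or 4 (adjusted p = 0.156, 0.0606, 0.107 and 0.0512, edgeR quasi-likelihood test) and without Bbs8-/- replicate 1, 2 or 4 (adjusted p = 0.167, 0.111 and 0.0666).

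Genes of other cell types also differed between the genotypes. All 12 rod genes on the list were lower in Bbs8-/- libraries (median -1.36 on the log2 scale), where 6.80% of all tested genes were called lower. The abundant Sag and Gnat1, of the rod signalling cascade, had log2 fold changes of -0.77 and -1.47. Summed over this list, the level was 57647 CPM in Bbs8+/+ and 22981 CPM in Bbs8-/- libraries, and the ratio of gamma crystallin to rod counts was 0.0291 ± 0.000654 (SD, n = 4) and 0.00706 ± 0.000637 (SD, n = 4), without overlap. Of the erythrocyte genes 5 of 5 were lower (median -1.34 on the log2 scale), beside the same 6.80% over all genes. Hbb-bs, the most abundant of them, fell from 2149 to 847 CPM. The lowest log2 fold change among the erythrocyte and rod genes was -1.69 with a standard error of 0.27, for Alas2. Those of 8 of the 8 gamma crystallins were lower, but that of Crygn, -1.90 with a standard error of 0.47, was close to it. The part of these cell types in the fall of the gamma crystallins was not tested.

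Among the 11 RPE genes 4 were lower and 1 was higher (median -0.14 on the log2 scale), and of the 5 Müller glia genes 2 were higher, Glul and Dkk3, where 6.80% of all genes were lower and 5.46% higher. Summed over the RPE genes, the level was 36516 CPM in Bbs8+/+ and 45992 CPM in Bbs8-/- libraries, but this rise was that of Ttr, and the 10 other genes together fell from 15546 to 14187 CPM, without overlap. Of 5 genes of cornea and surface epithelium, 4 were tested and 3 were higher in Bbs8-/- RPE, each of which passed the filter only through the Bbs8-/- libraries. The other tested gene, Aldh3a1, was the most abundant of the list, at 12.9 CPM in Bbs8+/+ and 17.4 CPM in Bbs8-/- libraries. Its genotypes overlapped, and it was not past the threshold (log2 fold change 0.43, adjusted p = 0.426, edgeR quasi-likelihood test). The keratin genes Krt5 and Krt14 had 0 counts in all Bbs8+/+ libraries and 147 and 36 counts in the Bbs8-/- libraries together, Krt15 had 1 and 239 counts, and the corneal keratin Krt12 had 0 counts in the 8 libraries. The libraries with low gamma crystallin levels were thus those with these surface keratins, whose part in the result was not tested.

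**Figure D5:**
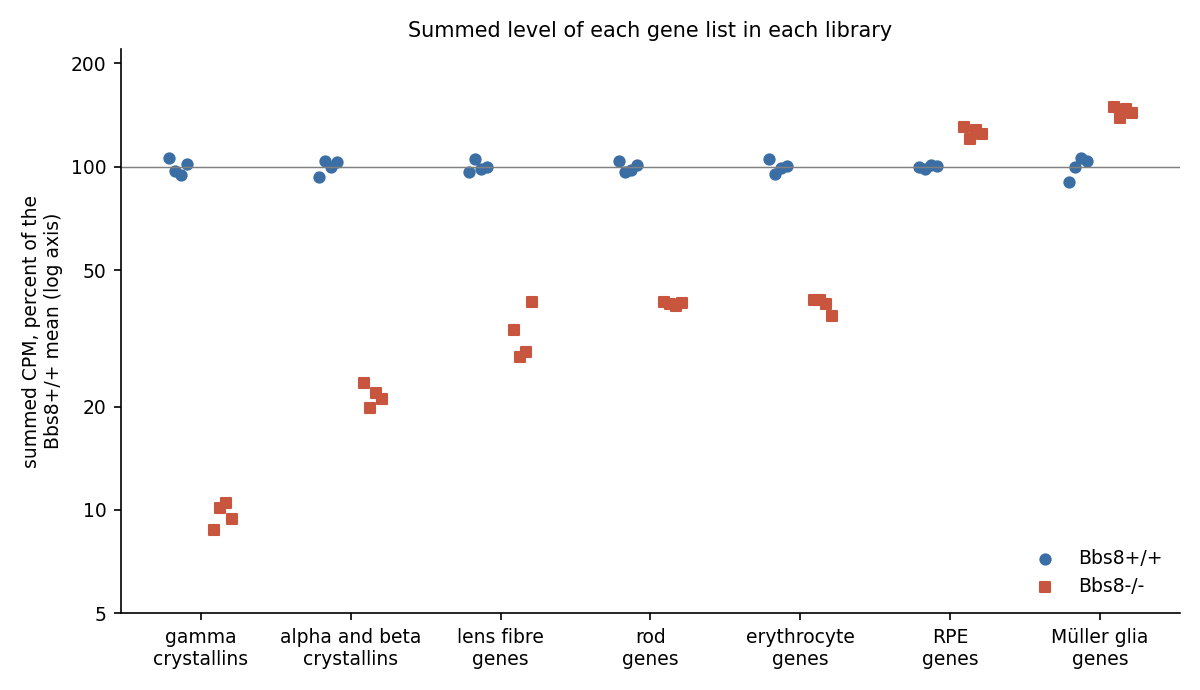
For 7 gene lists, the summed CPM of each library is plotted as a percentage of the mean of the Bbs8+/+ libraries on a log axis, with circles for Bbs8+/+ and squares for Bbs8-/-. The mean of the Bbs8-/- libraries was 9.68% for the gamma crystallins, 21.6% for the alpha and beta crystallins, 32.6% for lens fibre genes, 39.9% for rod genes and 39.6% for erythrocyte genes, while Müller glia genes lay above 100%, as did RPE genes with Ttr but not without it (91.3%).

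The profile of the summed gamma crystallins over the 8 libraries was compared with that of each of the 8431 other genes whose mean was 10 CPM or more, as the root mean square difference of log2 CPM after each profile was centred on its mean. The closest were Cryaa (0.27), Cryba1 (0.31), Cryba2 (0.35), Crybb3 (0.53) and the targeted gene Ttc8 (0.55), where the median of all genes compared was 1.70. Ttc8 had a log2 fold change of -3.34, close to that of the abundant gamma crystallins. With falls this large, the measure mostly reflects a difference of like size between the genotypes. Whether these genes share any regulation was not tested. By the same measure Crygb (0.07) and Crygs (0.09) were closest to the sum, to which they contribute most, and Crygf (0.93) and Crygn (0.89) were farthest.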

How the data were processed

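RPE of 4 Bbs8+/+ and 4 Bbs8-/- mice at P29 was analysed from 8 libraries, grouped by their labels. The authors trimmed single-end reads of 100 bp, aligned them to mm10 with STAR and Ensembl gene models, and deposited raw htseq-count counts of uniquely mapped reads for each gene. The 5 summary lines that name no gene were left out. Of all alignment records, 32.8 to 34.5% were not unique, 17.0 to 20.6% fell on no gene and 0.244 to 0.296% were ambiguous. Symbols (30934 of 31053 identifiers matched), coordinates and transcripts came from GENCODE vM21 on GRCm38, the same build as mm10 in a later gene release, and promoters from RefSeq.

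Genes that reached 1 CPM in 4 or more libraries were fitted together in R 4.3.3 with edgeR 4.0.16 (TMM, trended dispersions, quasi-likelihood F test for both directions), with Benjamini-Hochberg adjustment over all 12889 genes and a threshold of 0.05. TMM factors were 0.955 to 0.980 in Bbs8+/+ and 1.02 to 1.05 in Bbs8-/- libraries. Each standard error was derived from the log2 fold change and its F value. Pooled folds carry exact conditional binomial intervals of 95%, for counting error only, since no molecular identifiers were used. Proteins were translated from coding sequences and aligned with Biopython 1.88 in Python 3.11.15. Windows were compared with annotated transcripts, and the rest of the genome was not used here.

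The genes named were Ttc8, the members, genes of the lists that passed the filter, tested neighbours within 500 kb, and the 5 genes of closest profile. Lenep, Birc7, Foxe3, Pitx3, Sox1, Krt12 and Gm28845 were named beyond this rule after their values were seen. The members and lists were chosen with earlier results of these data known. Alternatives were DESeq2 1.42.0, scaling by library size alone, TMM without the lens, rod and erythrocyte lists, a likelihood ratio test, replicate numbers as a block, an adjusted p of 0.01, 3 different low-count filters, sums without Cryab or Ttr, and leaving out each library. Results for some genes of the lists are not reported here.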

Additional observations from a re-analysis of the deposited data

Results flagged for a closer look

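In 190 groups of 4 libraries, formed by genotype for shares, ratios, sums and some levels reported here, 9 had 1 library set apart. Its gap to the nearest of the others took a larger part of the group's range than Dixon's test allows at 95%. Chance alone gives this in about 1 of 20 such groups. None was a level or a share of a gamma crystallin, and none a sum over a gene list. The levels of Sag and Krt15, among other genes named here, were not in the groups examined.

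Among the alpha and beta crystallins, Cryaa stood at 548 CPM in Bbs8+/+ replicate 3 and at 606 to 610 CPM in the other Bbs8+/+ libraries. Cryab stood at 277 CPM in Bbs8+/+ replicate 1 and at 378 to 395 CPM in the others. Among lens fibre genes, Gja3 was at 5.60 CPM in Bbs8+/+ replicate 2 and at 1.64 to 2.23 CPM in the others, Lgsn was at 1.65 CPM in Bbs8-/- replicate 1 with 0 counts in the others, and Dnase2b was at 3.85 CPM in Bbs8-/- replicate 4 with 0 counts in the others.

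Crybg3 stood at 21.9 CPM in Bbs8-/- replicate 2 and at 13.2 to 13.6 CPM in the others. Of the neighbouring genes, Map2 was at 343 CPM in Bbs8+/+ replicate 4 against 396 to 404 CPM, Slc4a2 at 219 CPM in Bbs8-/- replicate 1 against 248 to 250 CPM, and Tmub1 at 20.8 CPM in Bbs8-/- replicate 3 against 7.82 to 9.33 CPM.

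Outside the gene counts, the share of alignment records that fell on no annotated gene was 20.2 ± 0.381% (SD, n = 4) in Bbs8-/- and 17.5 ± 0.658% (SD, n = 4) in Bbs8+/+ libraries, without overlap. Its part in any result was not tested.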

How the results depend on the processing

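The log2 fold change of each gamma crystallin kept its direction and its side of the threshold in all 125 combinations of gene and alternative that could be computed, with adjusted p up to 0.0329, for Crygn. With a mean of at least 10 CPM required, 5 gamma crystallins in place of 8 were called lower, because Cryga, Crygf and Crygn were no longer tested. At an adjusted p of 0.01, 571 genes in place of 877 were lower and 394 in place of 704 higher, and 8 gamma crystallins were lower. Scaling by library size alone gave 654 lower and 1008 higher genes, 60.6% higher in place of 44.5%, with a median shift in log2 fold change of 0.09. Creb1, Etv5 and Agap3 lost their calls under this scaling, Creb1 also in DESeq2, and Crym with TMM without the lens, rod and erythrocyte lists and with a filter of 1 count in all. A filter on a mean of at least 1 CPM, chosen after seeing the data, left the count at 8. Also chosen then, leaving Cryab out changed the genotype difference in the ratio of gamma to alpha and beta crystallins from -0.441 to -0.330, and leaving Ttr out reversed that of the summed RPE genes, from 9475 to -1359 CPM, because Ttr held most of the sum.

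With the replicate numbers as a block, 8 gamma crystallins were lower, as were 827 of all genes, with 650 higher, and of the named genes Fetub and Crym lost their calls. Libraries of the same number deviated together with r from -0.05 to 0.01 over 8436 genes, and none matched its own number best. The numbers thus gave no sign of pairing, though a pairing of small effect could not be seen in this way. Leaving out each library, the count of gamma crystallins lower was 8 each time, the log2 fold change of Cryge ranged from -3.76 to -2.99 and that of Crygf from -6.72 to -5.37, and 5 or 6 lens fibre genes were lower, while Creb1, Etv5, Fetub, Agap3, Kcnh2 and Crym also lost their calls in some of these fits. The shares of Crygd, Cryge and Crygs, whose genotypes overlapped, changed the sign of their difference. Depth limits Crygf and Cryga, with 3 and 7 counts over all Bbs8-/- libraries.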
